A study of Mus musculus with 24 samples.

Results

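The comparison was EpiCSETF against EpiTF: 6 of the 24 libraries of a mouse lung organoid study, in 2 groups of 3. It asked what an earlier exposure to cigarette smoke extract (CSE) left behind in epithelial cells when both arms were later given the same drugs, and it was read across all genes. Organoids were grown from lung epithelial cells of naive wild-type mice together with CCL206, a single mouse lung fibroblast line. EpiCSETF cultures had 5% CSE for 14 days and EpiTF cultures had vehicle. Both were then dissociated, and equal numbers of epithelial cells were put back with CCL206 cells from outside the first culture. Both received 100 nM tanimilast with 100 nM formoterol until RNA was taken on day 28, so CSE had been absent for the last 14 days in either arm. The libraries came from Epcam-positive cells, here the epithelial fraction, and mouse numbers 1 to 3 pair the 2 arms. The nearest other libraries are EpiCSE and EpiVeh, with and without CSE and with no drug, and FibCSETF and FibTF, the Epcam-negative cells under the same treatments. The labels give no age or sex of the mice and no method of cell separation.

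Club cells line the small airways, secrete secretoglobins and carry enzymes that oxidise and conjugate inhaled chemicals. Alveolar type 2 cells make surfactant and can give rise to the flat type 1 cells, while basal cells are the stem cells of the larger airways. Smoke constituents are classically sensed by the aryl hydrocarbon receptor (AhR) and by NRF2, transcription factors that switch on detoxifying and antioxidant enzymes. Tanimilast blocks PDE4, which degrades cyclic AMP, and formoterol is a bronchodilator that raises it.

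The 6 libraries held 35871849 to 47534709 counts, so that 1 CPM, a count scaled to the library's total, stood for 35.9 to 47.5 counts. Levels below are CPM after TMM scaling, given in the order mouse 1, 2, 3, and effects are log2 fold changes of EpiCSETF over EpiTF with their standard error (SE). Mitochondrial genes took 4.15 to 5.40% of the counts. All 18 epithelial identity markers were present, with Epcam between 900 and 1722 CPM. Their summed level was 15470 to 18114 CPM in EpiTF and 13681 to 15786 CPM in EpiCSETF, ranges that overlap. All 8 endothelial markers and 7 of 10 immune markers, Ptprc among them, stayed under 1 CPM in every library. Fibroblast identity genes were present at a summed 145 to 267 CPM in EpiTF and 188 to 412 CPM in EpiCSETF. The labels do not say that replicates were separate experiments beyond the mouse, so the tests measure the spread between 3 mouse numbers and their cultures. Whether a number stands for 1 animal or a pool is not stated, and Xist and the Y-linked Ddx3y were both present in each of the 6 libraries.

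No gene passed an adjusted p under 0.05 in the edgeR quasi-likelihood test without a mouse term, among 18038 genes tested (0%). At an unadjusted p under 0.05 there were 901 genes (5%), 492 higher after CSE (2.73%) and 409 lower (2.27%). With mouse as a block, 6 genes passed (0.0333%), 3 higher (0.0166%) and 3 lower (0.0166%), and 1987 had an unadjusted p under 0.05 (11%). DESeq2 called 54 of the 15919 genes it gave an adjusted p (0.339%), 25 higher (0.157%) and 29 lower (0.182%). The 2 groups did not overlap for 2115 genes (11.7%). When 1 of the 6 libraries or 1 mouse was left out of the block fit, between 0 and 10 genes passed. Of the 6 genes, Bcl2l15 (without EpiTF replicate 1) and NewGene_2237 (without EpiTF replicate 3) were still called, each in 1 of 9 such fits. The sizes stayed close to those of the full fit: over the 9 fits the log2 fold change was 2.20 to 2.80 for Dsc3, 1.07 to 1.29 for Slc16a12, 0.41 to 0.49 for Fads1, -1.26 to -1.04 for Bcl2l15, -0.62 to -0.54 for Tmem71 and -0.76 to -0.60 for NewGene_2237.

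**Figure D1:**
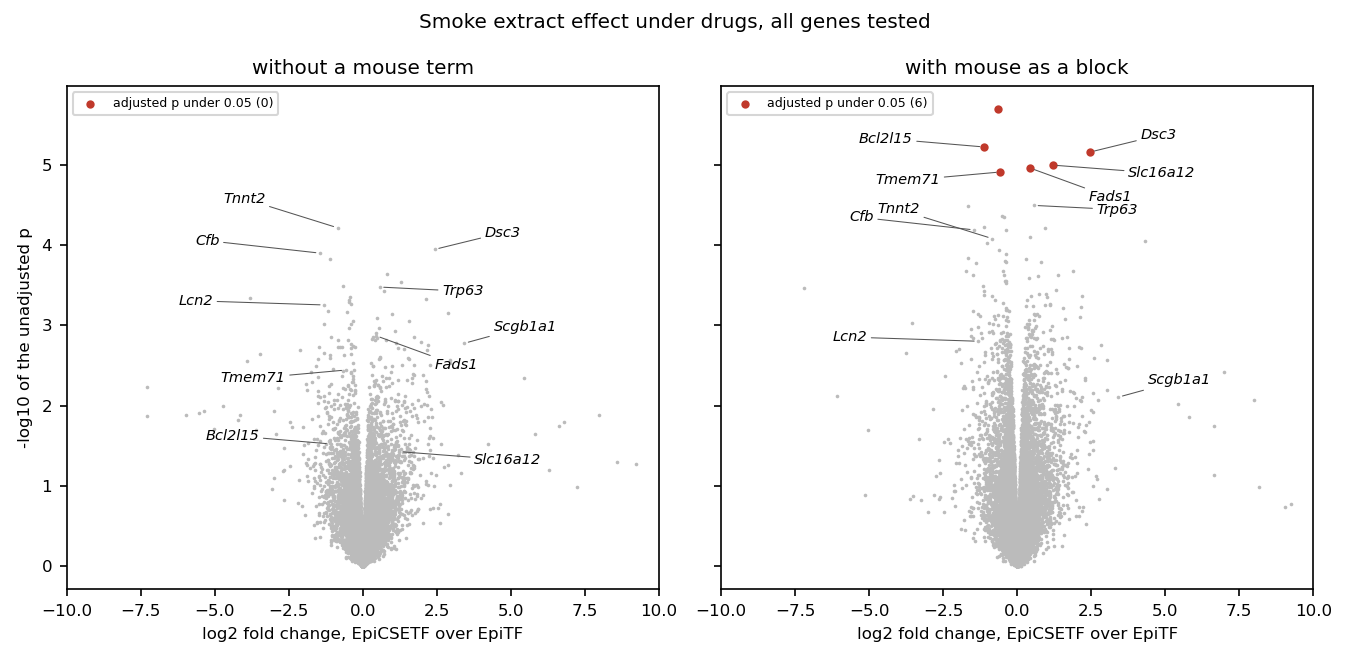
Each point is 1 of 18038 genes, with the log2 fold change of EpiCSETF over EpiTF on the horizontal axis and -log10 of the unadjusted p (edgeR) on the vertical axis; the left panel has no mouse term and the right panel has mouse as a block. The 6 red points on the right passed an adjusted p under 0.05, and 0 did on the left.

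Dsc3, desmocollin 3, a cadherin of the desmosomes that hold stratified epithelium together, rose with mouse as a block. Its level was 0.893, 0.401 and 0.411 CPM in EpiTF and 3.80, 3.02 and 2.56 CPM in EpiCSETF. All 3 EpiCSETF libraries lay above all EpiTF libraries. The log2 fold change was 2.43 ± 0.42 without a mouse term (edgeR adjusted p = 0.628) and 2.47 ± 0.30 with the block (edgeR adjusted p = 0.0369). DESeq2 gave an adjusted p of 5.55e-05. These are low counts, and they were also higher after CSE without drugs, at 6.02, 5.35 and 2.98 CPM against 1.02, 1.57 and 0.710 CPM.

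Slc16a12, a monocarboxylate transporter family member that carries creatine, rose with the block too. It was at 2.19, 6.62 and 4.21 CPM in EpiTF and 5.16, 16.4 and 8.93 CPM in EpiCSETF. The groups overlapped because the mice differed, but each mouse was higher after CSE. Its log2 fold change was 1.23 ± 0.52 (adjusted p = 0.98 in edgeR) and 1.21 ± 0.15 with the block (edgeR adjusted p = 0.0369), and without EpiCSETF replicate 2 it was 0.70 in the fit without a mouse term. Fads1, a desaturase of polyunsaturated fatty acid synthesis, had the narrowest spread of the 3. It was at 88.7, 81.5 and 77.6 CPM in EpiTF and 123, 116 and 99.2 CPM in EpiCSETF, without overlap. The log2 fold change was 0.45 ± 0.11 (edgeR adjusted p = 0.664), or 0.45 ± 0.06 with the block (edgeR adjusted p = 0.0369).

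Bcl2l15, a member of the Bcl2 family of apoptosis regulators, fell with the block, from 46.5, 27.0 and 52.6 CPM in EpiTF to 25.5, 10.9 and 22.9 CPM in EpiCSETF. Mouse 2 was the lowest in both arms, and the groups did not overlap. The log2 fold change was -1.09 ± 0.43 (edgeR adjusted p = 0.98), or -1.13 ± 0.13 with the block (edgeR adjusted p = 0.0369). Tmem71, a transmembrane protein, fell with the block from 33.4, 27.3 and 32.9 CPM to 21.7, 18.6 and 22.6 CPM. Its change was -0.57 ± 0.16 (edgeR adjusted p = 0.782), or -0.57 ± 0.07 with the block (edgeR adjusted p = 0.0369). The last of the 6 was NewGene_2237, a locus with no symbol, at 201, 190 and 205 CPM in EpiTF and 122, 109 and 148 CPM in EpiCSETF (with the block, edgeR adjusted p = 0.0362).

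Promoters of 2 of these genes were taken from the RefSeq table of build GRCm38.p6. Each runs from 250 bases before to 50 bases after the start of the gene. The lookup skipped a chromosome and returned no entry for Dsc3, Fads1 and Tmem71. For a gene on the skipped chromosome it does not show whether that table holds it. The 2 promoters are shown as an example of a gene higher and a gene lower after CSE. Both strands were searched for the AhR core (GCGTG), the NRF2 element core (TGACNNNGC) and the AP-1 site (TGANTCA). Capitals mark matches, which may lie on either strand. The Slc16a12 window, at chr19:34747279-34747578 on the minus strand, held 2 matches of the NRF2 core, a letter pattern present in 12.4% of 32851 promoters of that length. It held no match of the AhR core (32.4% of promoters) or the AP-1 site (7.81%). The Bcl2l15 window, at chr3:103832446-103832745 on the plus strand, held none of the 3 patterns. A match of these letters is a description and not a binding site.
Slc16a12: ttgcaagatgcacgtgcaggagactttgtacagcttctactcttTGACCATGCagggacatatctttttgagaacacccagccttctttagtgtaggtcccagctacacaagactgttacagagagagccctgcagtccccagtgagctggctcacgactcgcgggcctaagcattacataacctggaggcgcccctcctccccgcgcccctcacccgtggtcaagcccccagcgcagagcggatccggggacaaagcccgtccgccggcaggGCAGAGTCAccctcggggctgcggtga
Bcl2l15: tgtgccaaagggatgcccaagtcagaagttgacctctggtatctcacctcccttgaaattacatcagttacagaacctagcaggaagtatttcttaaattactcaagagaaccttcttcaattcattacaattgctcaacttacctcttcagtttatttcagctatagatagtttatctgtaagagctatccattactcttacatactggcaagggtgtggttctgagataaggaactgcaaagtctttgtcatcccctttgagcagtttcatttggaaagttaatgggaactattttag

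**Figure D2:**
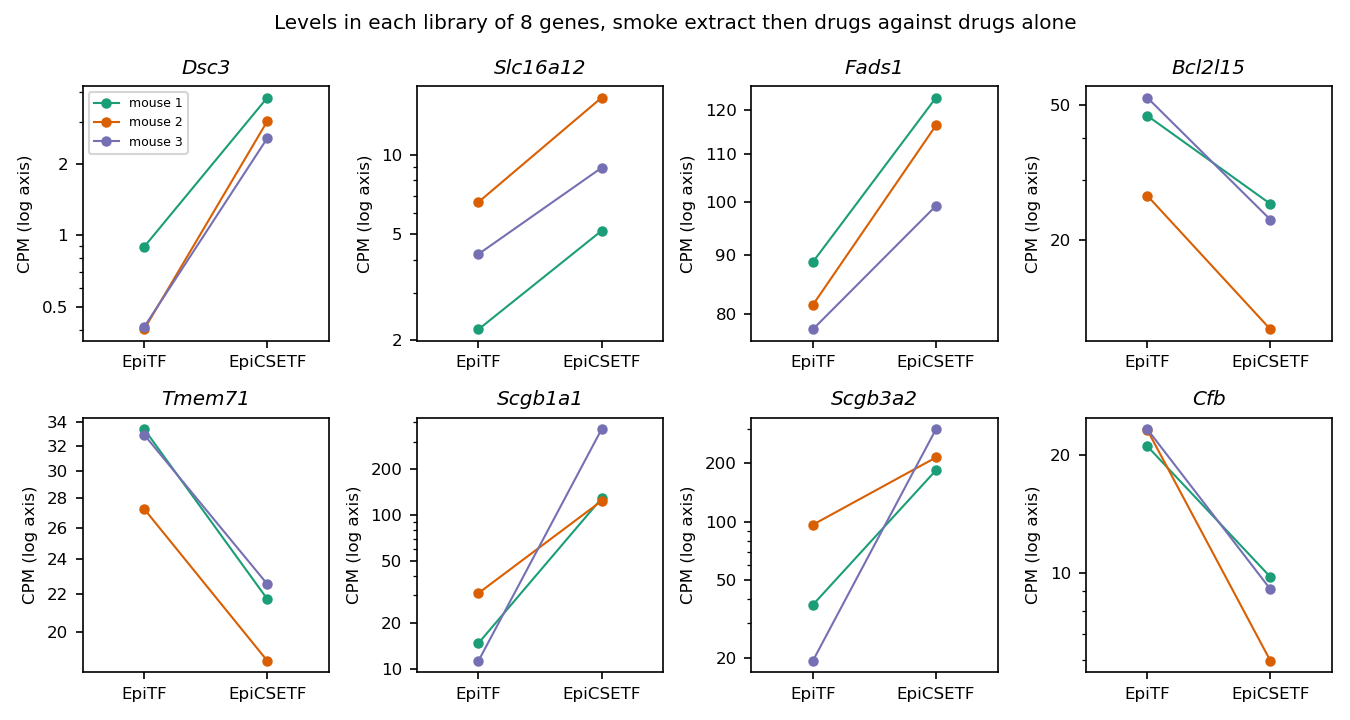
Level (CPM, log axis) of 8 genes in the EpiTF and EpiCSETF library of each mouse, 1 line per mouse. The first 5 panels are named genes called with mouse as a block; Scgb1a1, Scgb3a2 and Cfb were not called by edgeR, and all 8 move the same way in each mouse.

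Past the called genes, a rule named the 12 rises and 12 falls with the smallest p that had at least 5 CPM and 1 direction in the 3 mice, counting the 4 called ones that met it. The remaining 20 did not pass edgeR in either fit and are given as values. Groups did not overlap for 23 of the 24, against 11.7% of all genes, but the ranking by p favours such genes. On the higher side were 2 carboxylesterases, enzymes that hydrolyse esters and many drugs. Ces2g was at 34.5, 31.2 and 37.0 CPM in EpiTF and 57.7, 53.6 and 67.8 CPM in EpiCSETF, a difference of 0.80 ± 0.15. Ces2e was at 3.81, 4.30 and 4.49 CPM against 7.83, 8.73 and 8.19 CPM, or 0.98 ± 0.21. The 2 copies are similar in sequence, and how reads shared between them were counted is not given. Smaller differences were those of Trp63 (0.57 ± 0.11), the master transcription factor of basal cells, Fat2 (0.49 ± 0.11), an atypical cadherin, Socs3 (0.53 ± 0.12), a feedback inhibitor of cytokine signalling, and Mthfd1 (0.34 ± 0.08), an enzyme of folate metabolism. Lbhd1 (0.71 ± 0.14), Trim62 (0.49 ± 0.12), Plch2 (0.46 ± 0.11), a phospholipase C, and Nxn (0.33 ± 0.08), a thioredoxin relative, complete that side.

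On the lower side, Cfb, complement factor B of the alternative pathway, was at 21.1, 23.2 and 23.3 CPM in EpiTF and 9.78, 5.97 and 9.10 CPM in EpiCSETF. That is -1.44 ± 0.25, with an adjusted p of 0.628 in edgeR, 0.0842 with the block and 5.55e-05 in DESeq2. Lcn2, lipocalin 2, which withholds iron from bacteria, was at 823, 976 and 1174 CPM against 548, 274 and 384 CPM. It differed by -1.30 ± 0.27, with no overlap. Tnnt2, known as the cardiac troponin T, had the smallest p of all genes in the fit without a mouse term, at 47.0, 44.0 and 46.8 CPM against 26.4, 25.2 and 24.9 CPM (-0.85 ± 0.14). Tnfrsf26, a mouse receptor of the TNF receptor family, differed by -1.09 ± 0.19. Sprr2d, a cornified envelope protein, differed by -1.17 ± 0.25. Smad7 (-0.47 ± 0.10) is the inhibitory Smad of TGF-beta signalling, Lgr6 (-0.52 ± 0.11) a receptor for R-spondins and Camk2n1 (-0.47 ± 0.10) an inhibitor of the kinase CaMKII. Plekha2 (-0.41 ± 0.08) and Prelid2 (-0.39 ± 0.08) were the smallest.

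Over all genes, 50.7% had a positive and 49.3% a negative log2 fold change, 17.1% were higher in all 3 mice and 16.4% lower. The counts in the lists below are to be read beside these shares. Club cell genes were mostly higher after CSE: 15 of 18 had a positive log2 fold change, 10 in all 3 mice. Their median was 0.57 against 0.00 for all genes, and none was called by edgeR in either fit. Scgb1a1, the main club cell secretory protein, was at 14.7, 31.1 and 11.3 CPM in EpiTF and 128, 124 and 362 CPM in EpiCSETF. The lowest EpiCSETF library thus lay well above the highest EpiTF library. The log2 fold change was 3.43 ± 0.82, with an adjusted p of 0.664 in edgeR, 0.279 with the block and 0.0351 in DESeq2. Scgb3a2, another secretoglobin, was at 37.4, 96.7 and 19.3 CPM against 184, 215 and 300 CPM (2.19 ± 0.74, edgeR adjusted p = 0.916). Secretoglobins resemble each other, and shared reads cannot be traced. Aldh1a7, an aldehyde dehydrogenase, was at 13.7, 20.0 and 11.0 CPM against 22.2, 34.6 and 32.1 CPM. Of the 3 negative members, Pigr was lower in all 3 mice, at 1261, 1363 and 803 CPM against 789, 1017 and 500 CPM. The summed level of the 18 genes overlapped between groups, at 12643 to 15385 CPM in EpiTF and 14013 to 20126 CPM in EpiCSETF, and the median was 0.20, 0.54 and 0.85 in mouse 1, 2 and 3. In the fits that left out a library or a mouse the median stayed positive, from 0.30 without EpiTF replicate 3 and 0.33 without EpiCSETF replicate 2 to 0.81 without EpiTF replicate 2. In libraries of many cells, a larger share of a cell type and more RNA of its genes per cell cannot be told apart.

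Alveolar type 2 genes had a median of 0.69, with 15 of 16 positive, 9 in all 3 mice and none lower in all 3. Cxcl15, a chemokine of mouse lung epithelium, was at 23.5, 35.0 and 21.6 CPM in EpiTF and 71.7, 51.3 and 102 CPM in EpiCSETF. It differed by 1.49 ± 0.42, with an adjusted p of 0.827 in edgeR and 0.049 in DESeq2. Sftpc, the surfactant protein that defines the type, was at 9.85, 8.23 and 5.45 CPM against 8.47, 31.1 and 29.9 CPM, so mouse 1 did not share the difference. Lpcat1, an acyltransferase of surfactant lipid synthesis, differed by 0.46 ± 0.19 and did not overlap. The list's median was 0.10, 0.35 and 0.90 by mouse, and 0.27 in the fit without mouse 3. Alveolar type 1 genes were less uniform, with 9 of 16 higher and 4 lower in all 3 mice (16.4% of all genes were lower in all 3) and a median of 0.23. Ager, the receptor that marks type 1 cells, was at 3.55, 4.13 and 3.59 CPM against 5.89, 7.81 and 12.2 CPM (1.20 ± 0.38, edgeR adjusted p = 0.901). Hopx, a further type 1 marker, differed by 0.35 ± 0.20.

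**Figure D3:**
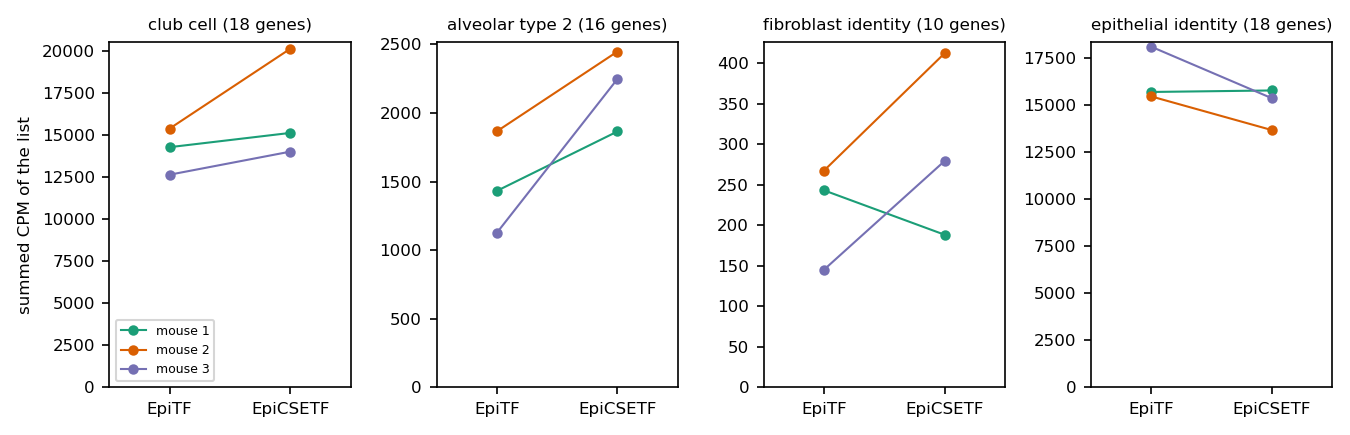
Summed level (CPM, linear axis from 0) of 4 marker lists in the EpiTF and EpiCSETF library of each mouse, 1 line per mouse. The alveolar type 2 sum was higher after CSE in each mouse, the fibroblast sum was higher in mouse 2 and 3 and lower in mouse 1, and the epithelial sum did not move one way.

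Basal genes were also higher on balance, with a median of 0.55, 9 of 10 positive and 7 in all 3 mice. Their summed level overlapped between groups, at 1243 to 1682 CPM in EpiTF and 1273 to 2961 CPM in EpiCSETF. Krt5, the basal keratin, was at 362, 254 and 328 CPM in EpiTF and 852, 271 and 740 CPM in EpiCSETF, with mouse 2 almost level. Krt14, another keratin of the list, was higher in mouse 1 only, at 207, 128 and 289 CPM against 445, 124 and 228 CPM. Trp63 was more even, at 79.7, 74.6 and 69.7 CPM against 121, 98.5 and 113 CPM. Its adjusted p was 0.628 in edgeR, 0.0745 with the block and 0.00565 in DESeq2. Squamous and cornified genes did not share a direction. Dsc3 was called with the block, and Sprr1a, an envelope precursor, was lower, at 194, 172 and 225 CPM against 148, 131 and 136 CPM (-0.51 ± 0.15). The list's median was 0.10. Of the Notch genes, whose signal steers airway cells between secretory and ciliated fates, 5 of 13 had an unadjusted p under 0.05, all positive, against 2.73% of all genes on that side, and none was called. The ligands Dll1 (0.66 ± 0.18) and Jag2 (0.35 ± 0.09) were among them. Over the whole Notch list, 8 of 13 genes were positive and 5 negative, with 7 higher and 2 lower in all 3 mice. Those 2 were the ligand Dll4 (-0.44 ± 0.28) and the Notch target Hes1 (-0.17 ± 0.10). Dll1 was at 14.8, 15.2 and 11.3 CPM against 21.3, 22.5 and 21.6 CPM. Ciliated genes had a median of 0.16 and no common direction by mouse (-0.17, 0.50 and 0.00), and the median was -0.36 without EpiCSETF replicate 2 and 0.45 without mouse 1. Foxj1, their master regulator, was at 47.2 ± 17.3 CPM (SD, n = 3) in EpiTF and 49.9 ± 26.2 CPM (SD, n = 3) in EpiCSETF.

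Detoxification enzymes had the highest share of members that were higher in all 3 mice among the 39 lists. Of 21 genes tested, 20 were positive and 15 higher in all 3 mice, none was lower in all 3, and the median was 0.66 (0.28, 0.78 and 0.85 by mouse). No member was called by edgeR in either fit. In the fit without a mouse term, leaving out libraries of mouse 2 moved the median both ways. It was 0.32 without EpiCSETF replicate 2 and 1.02 without EpiTF replicate 2. Gstt1, a glutathione transferase, was at 2.11, 1.58 and 1.12 CPM in EpiTF and 3.35, 6.30 and 5.55 CPM in EpiCSETF (1.66 ± 0.46, edgeR adjusted p = 0.825). Cyp2s1, a cytochrome P450, was at 110, 145 and 95.2 CPM against 155, 243 and 170 CPM (0.70 ± 0.24). Cyp2b10, a P450 of the constitutive androstane receptor, was at 7.49, 6.14 and 5.83 CPM against 9.11, 10.5 and 8.64 CPM (0.54 ± 0.19). The summed level was 6748 to 7114 CPM in EpiTF and 7140 to 9040 CPM in EpiCSETF. These ranges did not overlap, but mouse 3 was almost level, at 7114 CPM against 7140 CPM. Gsto1, the 1 negative member, took a large part of the sum, at 4713, 3761 and 5466 CPM against 4745, 3482 and 4145 CPM. Of the genes tested, the list shares 4 with the club cell list (Cyp2f2, Aldh1a1, Gsto1 and Fmo2), 3 with the NRF2 list (Gsta3, Gstm1 and Ephx1) and 1 with the AhR list (Aldh3a1), so the counts of these lists overlap.

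No target of the classical smoke sensors was called. Of the AhR list, 7 of 10 genes could be tested, with a median of 0.24. Of these, 6 were positive, and 4 were higher and 1 lower in all 3 mice. Cyp1a1, the textbook AhR target, and Ahrr, the receptor's repressor, were too low in the epithelial fraction. Cyp1b1, a P450 target of AhR, was at 256, 256 and 214 CPM in EpiTF and 284, 284 and 227 CPM in EpiCSETF (0.13 ± 0.17, edgeR adjusted p = 0.984). Tiparp, a quick AhR target, differed by -0.20 ± 0.18. Ahr itself was at 290, 325 and 272 CPM against 357, 359 and 384 CPM (0.31 ± 0.10), and Aldh3a1, an aldehyde dehydrogenase, differed by 0.54 ± 0.22. NRF2 targets had a median of 0.21, with 17 of 22 positive and 13 higher in all 3 mice. Gsta4, a glutathione transferase for lipid aldehydes, was at 462, 490 and 448 CPM against 617, 618 and 656 CPM (0.43 ± 0.14, edgeR adjusted p = 0.901). Of the 2 best known NRF2 targets, Nqo1, a quinone reductase, differed by 0.24 ± 0.26, near the list's median. Hmox1, which degrades haem, differed by -0.04 ± 0.22.

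Goblet and transitional genes lay on the lower side. Of 13 goblet genes, 9 were negative, 6 in all 3 mice, none was higher in all 3, and the median was -0.32, or -0.07 without EpiTF replicate 2. Tff2, a trefoil peptide secreted with mucus, was at 206, 167 and 94.7 CPM in EpiTF and 52.0, 89.4 and 32.6 CPM in EpiCSETF (-1.43 ± 0.51, edgeR adjusted p = 0.954). Itln1, intelectin, differed by -0.98 ± 0.31 without overlap. The gel-forming mucins did not separate the groups. Muc5ac was at 22.0, 29.8 and 10.0 CPM against 15.8, 27.8 and 11.1 CPM, and Muc5b at 316, 293 and 99.9 CPM against 157, 197 and 106 CPM. Transitional genes, which mark the state between type 2 and type 1 cells after injury, were negative in 14 of 15 cases and lower in all 3 mice in 9, with a median of -0.21. Areg, an EGF receptor ligand, was at 184, 199 and 186 CPM against 148, 150 and 151 CPM (-0.34 ± 0.10). Itgb6, the integrin chain that activates TGF-beta, was at 174, 189 and 208 CPM against 137, 136 and 164 CPM (-0.39 ± 0.13, edgeR adjusted p = 0.911). None of these was called.

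Inflammation genes had a median of -0.26, with 8 of 21 lower and 3 higher in all 3 mice. Their summed level was 1966 to 2529 CPM in EpiTF and 1136 to 1651 CPM in EpiCSETF, without overlap, and Lcn2 alone made up 823 to 1174 CPM of the EpiTF sums. Tnfaip3, a brake on NF-kappaB, was at 171, 182 and 182 CPM against 123, 128 and 147 CPM (-0.43 ± 0.14, edgeR adjusted p = 0.901). Cxcl1, a neutrophil chemokine, differed by -0.26 ± 0.31. Interferon-stimulated genes were negative in 17 of 20 cases with a median of -0.13, positive in mouse 3 (0.06) and negative in mouse 1 and 2 (-0.22 and -0.29). Irf7, a transcription factor of that response, was at 35.8, 36.5 and 37.8 CPM against 27.8, 28.2 and 29.1 CPM (-0.37 ± 0.15). The groups did not overlap in that gene.

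**Figure D4:**
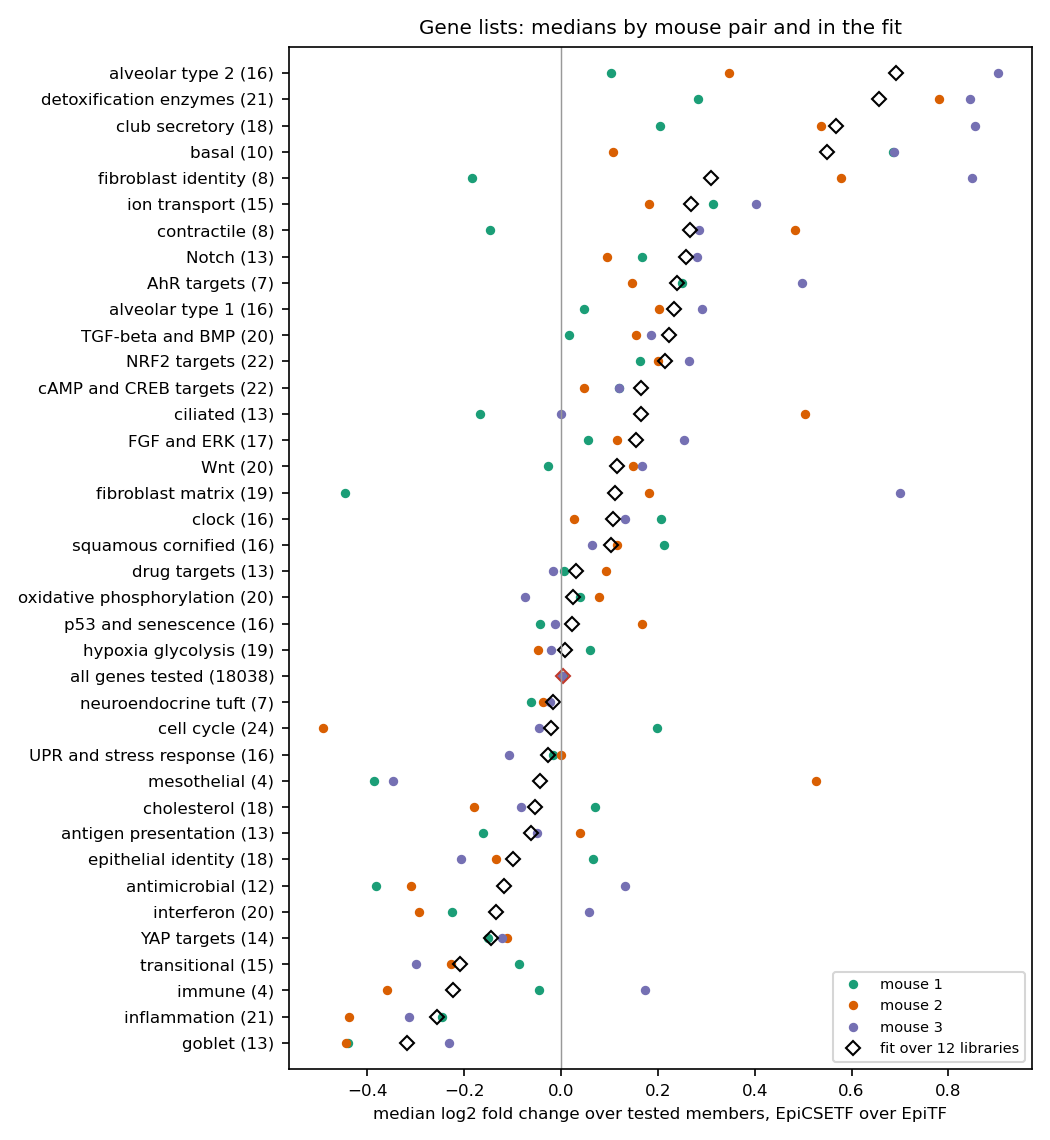
Median log2 fold change of EpiCSETF over EpiTF for 37 gene lists with at least 4 tested members (number tested in brackets) and for all genes. Dots are the medians of each mouse pair and diamonds the fit over 12 libraries. The detoxification, club, alveolar type 2 and basal lists are among those to the right in each mouse. The goblet, transitional and inflammation lists are among those to the left.

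The 13 drug target genes had a median of 0.03 against 0.00 for all genes, and none was called. Pde4b, a PDE4 enzyme, was at 22.5, 26.7 and 32.4 CPM in EpiTF and 21.4, 15.0 and 27.3 CPM in EpiCSETF, and Pde4d differed by -0.10 ± 0.14. Targets of cyclic AMP and CREB had a median of 0.17, with 11 of 22 higher and 4 lower in all 3 mice. Fos, an immediate early gene, was at 242, 223 and 237 CPM against 355, 323 and 273 CPM (0.44 ± 0.12). Pyy and Nr4a2 differed by 0.44 ± 0.25 and 0.23 ± 0.15.

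Ion transport genes had a median of 0.27, with 8 of 15 higher and none lower in all 3 mice. Targets of YAP, the mechanical growth signal, had a median of -0.14 and were lower in all 3 mice in 8 of 14 cases. Cyr61, a secreted matrix protein among them, was at 776, 961 and 904 CPM in EpiTF and 567, 753 and 686 CPM in EpiCSETF (-0.40 ± 0.14). The TGF-beta and BMP list had a median of 0.22, with 13 of 20 genes positive, 8 higher and 5 lower in all 3 mice. Among its lower members, Inhba, a subunit of activin, was at 41.8, 43.4 and 46.1 CPM against 26.7, 24.3 and 35.3 CPM (-0.60 ± 0.19). Vegfa, the vascular growth factor, was at 819, 888 and 918 CPM against 720, 642 and 637 CPM (-0.39 ± 0.09, edgeR adjusted p = 0.664, DESeq2 0.00473). Cell cycle genes had a median of -0.02 and split by mouse at 0.20, -0.49 and -0.05. Mki67, a proliferation marker, was at 104, 74.4 and 76.9 CPM against 131, 51.0 and 76.4 CPM. Medians of the p53, unfolded protein, cholesterol, respiratory chain and glycolysis lists lay between -0.05 and 0.02.

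The CSE difference without drugs offers other libraries of the same 3 mice. It called 0 genes (0%) without a mouse term in edgeR, 667 having an unadjusted p under 0.05 (3.7%), 0 with the block (0%) and 16 in DESeq2 (0.0888%). The interaction, which asks whether the CSE difference depended on the drugs, called 0 genes (0%) without a mouse term, 207 having an unadjusted p under 0.05 (1.15%), 0 with the block (0%) and 1 in DESeq2 (0.00555%). All 24 genes named by the rule had the same sign without drugs, as had 64.3% of all genes and 88.1% of the 901 with an unadjusted p under 0.05. Scgb1a1 was at 22.3, 85.7 and 13.5 CPM in EpiVeh and 108, 192 and 447 CPM in EpiCSE (2.62 ± 0.79). Lcn2 was at 574, 855 and 881 CPM against 413, 280 and 430 CPM (-1.04 ± 0.27). Cfb differed by -0.65 ± 0.25 without drugs and -1.44 ± 0.25 with them, and the interaction of -0.80 ± 0.35 did not pass (edgeR adjusted p = 1). The list medians without drugs were 0.20 for club, 0.80 for type 2, 0.31 for basal, 0.15 for detoxification and -0.69 for goblet genes.

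**Figure D5:**
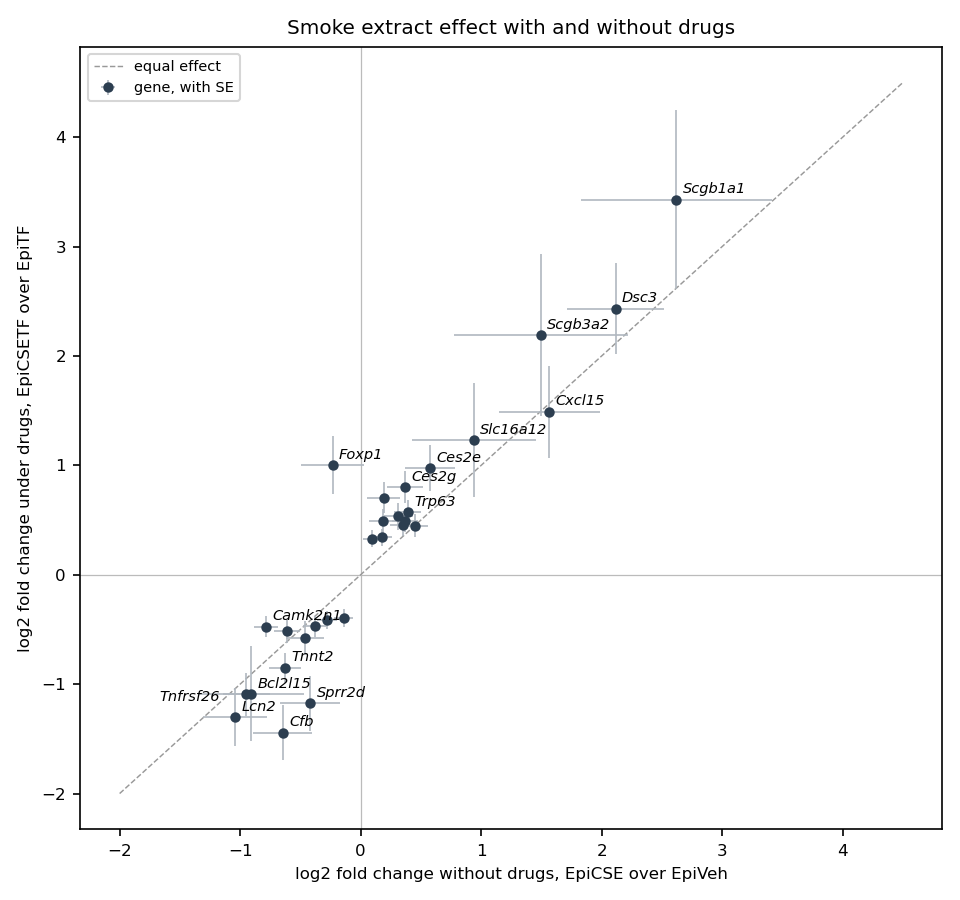
Log2 fold change of CSE without drugs (EpiCSE over EpiVeh, horizontal) and with drugs (EpiCSETF over EpiTF, vertical) for 29 genes, the 24 named by the rule with Dsc3, Scgb1a1, Scgb3a2, Cxcl15 and Foxp1, with SE bars and the line of equal effect. Foxp1 lies off the line, at -0.23 without drugs and 1.00 with them; the other plotted genes fall in the same quadrant for both.

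When the CSE difference was averaged over both drug states, a contrast chosen after seeing the data, Camk2n1 was the single gene called without a mouse term (0.00554%). With the block 181 genes were called (1%), 78 higher (0.432%) and 103 lower (0.571%), and 20 of the 24 genes named by the rule were among them. Lcn2 fell in that contrast by 1.19 on the log2 scale (edgeR adjusted p = 0.0471), Cfb by 1.06 (edgeR adjusted p = 0.0244) and Vegfa by 0.39 (edgeR adjusted p = 0.0243). Trp63 rose by 0.48 (edgeR adjusted p = 0.00795), Dll1 by 0.66 (edgeR adjusted p = 0.0471) and Ager by 0.98 (edgeR adjusted p = 0.0492). Scgb1a1, at 3.03 ± 0.65, did not pass (edgeR adjusted p = 0.101). That contrast shares the 6 libraries with the main one and adds 6. The 24 genes were chosen for their differences in the shared libraries, which favours their passing here.

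Foxp1, a transcription factor of lung epithelium, was one of the 5 genes with the smallest p for the interaction. It was at 12.7, 14.5 and 13.7 CPM in EpiTF and 25.0, 27.3 and 29.4 CPM in EpiCSETF. Without drugs it was at 29.6, 28.2 and 31.6 CPM in EpiVeh and 13.0, 34.0 and 29.2 CPM in EpiCSE. The EpiTF libraries and EpiCSE replicate 1 were thus the low ones. The interaction was 1.24 ± 0.37 (edgeR adjusted p = 1). Gapdh, a glycolytic enzyme often used as a reference gene, differed by -0.59 ± 0.37 with drugs and 1.08 ± 0.37 without. Its EpiTF level was 109, 124 and 300 CPM, so that library 3 stood apart, and the difference with drugs is close to 0 without it. Amot, which binds YAP, Lrch4 and Nol12 were the other 3, with interactions of -0.37 ± 0.10, 1.06 ± 0.31 and -0.32 ± 0.10, and none passed.

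In the Epcam-negative cells of the same cultures, FibCSETF against FibTF called 0 of 18287 genes (0%) without a mouse term in edgeR. In that fit 2155 had an unadjusted p under 0.05 (11.8%), and 110 were called with the block (0.602%). Of the 24 genes, 23 had the same sign in that fraction, with Fads1 the exception at -0.08 ± 0.10. The share of all genes with the same sign in both fractions was not counted. Tnnt2 (-1.11 ± 0.16), Smad7 (-0.50 ± 0.07), Lgr6 (-0.70 ± 0.12) and Bcl2l15 (-1.24 ± 0.37) fell there with the block (edgeR adjusted p = 0.0359, 0.0373, 0.0245 and 0.0427). Gstt1, at 2.36 ± 0.32, and Cyp2b10, at 1.40 ± 0.20, rose there with the block (edgeR adjusted p = 0.0245 and 0.0276). Scgb1a1 differed by 4.81 ± 0.89 (with the block, edgeR adjusted p = 0.0729). That fraction holds epithelial RNA and shares cultures with the epithelial one, so it is no separate replicate.

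RNA of the other fraction differed between the pairs. The median of 8 fibroblast identity genes was -0.18, 0.58 and 0.85 in mouse 1, 2 and 3, and that of 19 matrix genes -0.45, 0.18 and 0.70. The club and alveolar type 2 medians were lowest in mouse 1 and highest in mouse 3 as well, at 0.20 and 0.85, and at 0.10 and 0.90. With the fibroblast genes as a covariate the club median was 0.30, and the difference of Sftpc was 1.00 in place of 1.56. Col1a1, the main fibrillar collagen, was at 48.6, 53.7 and 28.3 CPM in EpiTF and 47.4, 67.5 and 47.5 CPM in EpiCSETF, and Col3a1 differed by 0.60 ± 0.36. Cdh1, an epithelial cadherin, and Epcam differed by -0.12 ± 0.11 and -0.33 ± 0.25. The part of this RNA in the gene differences was not tested beyond that covariate.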

How the data were processed

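Poly-A RNA of Epcam-positive and Epcam-negative cells from lung organoids was sequenced, and the authors deposited whole-number counts of reads per gene, not normalised. The submitters' processing notes name Trimmomatic 0.30 for trimming and DESeq2. Which aligner and counter ran, and whether strand was used, is not given in the sources here, so reads of overlapping, antisense and near-identical genes may be mixed. The labels' protocols call the reference by a human assembly's name, so the mouse build of the counts is not settled, and the promoters' coordinates are those of the RefSeq table. The table had 49280 features, 5941 of them NewGene loci without a symbol, which held 0.629 to 1.06% of the counts of the 6 libraries and stayed in the tests.

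The main test was that of edgeR 4.0.16, run in R 4.3.3 (TMM, filter on low counts by group, robust quasi-likelihood F test, Benjamini-Hochberg adjustment over all 18038 genes tested), as 4 group means over the 12 epithelial libraries with no mouse term. Called means an adjusted p under 0.05. SE is the log2 fold change divided by the square root of F. Pair differences use log2 CPM (prior count 2). Mouse numbers, read from the library titles, pair the libraries, and the fit with mouse as a block was an alternative. The deviations of EpiTF and EpiCSETF libraries of 1 mouse correlated across genes at 0.0413, 0.316 and 0.115, and the blocked values stand beside results they change. DESeq2 1.42.0 was an alternative, with RLE factors, no filter, a covariate for fibroblast RNA, the 2 groups alone, and libraries or mice left out. No pair of replicates held identical values. All 591 genes of 39 lists were matched to the table, older symbols through RefSeq names. Members, lists and the rule for named genes were chosen with earlier results of these data known. The rule takes 12 genes per direction as described, the 2 members of each list with the smallest p, a fixed set of 30 and the 5 with the smallest interaction p. Some genes that the rule takes are not reported here.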

Additional observations from a re-analysis of the deposited data

How the results depend on the processing

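The count of genes called for CSE with drugs was 0 in edgeR without a mouse term, with RLE factors, without the filter on low counts and with the fibroblast covariate. It was 6 with the mouse block, 54 in DESeq2, 3 with the 2 groups alone and 11 with the 2 groups alone and the block, 1 when averaged over both drug states, and 181 for that average with the block. Leaving out libraries or mice gave 0 to 1 genes without the block (1 fall without EpiCSETF replicate 3 or without mouse 3) and 0 to 10 with it. Without drugs the count was 16 in DESeq2, 1 with no filter, 2 with the covariate, 1 with the 2 groups alone, and 0 in each fit that left out a library or mouse. The interaction count was 1 in DESeq2 and 0 to 1 over libraries left out. The fibroblast fraction gave 110 with the block, 397 in DESeq2, 23 with no filter and 0 to 19 over libraries left out (14 without FibCSETF replicate 1, 19 without FibTF replicate 2). The cause of these differences was not tested.

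Of 76 named genes, 69 kept their direction in all 18 alternatives. The block turned Mki67 to -0.066, also with the 2 groups alone (-0.071), and changed no direction of another named gene. Foxj1 was -0.13 with the covariate, and -0.039 in the average or -0.070 with the block added. The average turned Gapdh to 0.24 (0.27 with the block) and Hmox1 to 0.051 (0.027 with the block). Over libraries left out, the range was -0.65 to 0.016 for Cxcl1, -0.44 to 0.43 for Foxj1, -0.85 to 0.018 for Gapdh, -0.20 to 0.14 for Hmox1, -0.42 to 0.28 for Mki67, -0.62 to 0.19 for Muc5ac and -0.017 to 0.44 for Nqo1. At 35.9 counts per CPM or more, Dsc3 and Gstt1 were among the named genes with the lowest counts.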

Other observations

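Xist, the RNA of the inactive X chromosome, was at 85.7, 84.1 and 38.8 CPM in EpiTF and 57.0, 107 and 91.1 CPM in EpiCSETF for mouse 1, 2 and 3. Ddx3y, a gene of the Y chromosome, was at 92.6, 86.0 and 92.8 CPM in EpiTF and 96.1, 73.3 and 71.4 CPM in EpiCSETF. Both were thus present in each of the 6 libraries, and neither was called. The labels give 1 mouse number per library and no sex.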
